A study of Mus musculus with 96 samples.

Results

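The genes described here are 9 members of the FGF4-ERK signalling route, taken from the table of read counts by their symbols: the ligand Fgf4, the receptors Fgfr1 and Fgfr2, the inhibitors Spry2, Spry4, Spred1 and Dusp6, and the transcription factors Etv4 and Etv5. All 9 were found among 23284 gene rows, and all 9 were among the 11746 rows that averaged 10 or more reads a cell. They were followed across 48 single cells of J1, a mouse embryonic stem (ES) cell line. The cells had been grown in serum with leukaemia inhibitory factor (LIF), without feeder cells, and the labels put all of them in 1 group, serum ES cells. No cell was edited or given a treatment of its own, so every contrast below is between cells of the same labelled group.

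Fibroblast growth factor 4 (FGF4) is secreted by ES cells and by the epiblast, binds FGF receptors together with heparan sulfate, and switches on the RAS-RAF-MEK-ERK kinase cascade. In the mouse blastocyst this signal drives part of the inner cell mass towards primitive endoderm, an extraembryonic layer marked by the transcription factor Gata6, and in culture it lets ES cells leave self-renewal. ERK activity also turns on its own brakes: Sprouty and Spred proteins act on the path to RAS and RAF, and the phosphatase DUSP6 inactivates ERK. ETV4 and ETV5 are ETS-family transcription factors whose genes are widely used as readouts of FGF signalling.

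The cells were divided by Gata6, with levels in CPM, the reads of a gene per 1000000 reads of its cell after scaling between cells. Gata6-over cells had more than 20 CPM and Gata6-under cells less. The 13 Gata6-over cells held 63.7 to 808.5 CPM of Gata6 and the 35 Gata6-under cells held 0 to 1.11 CPM, so no cell lay near the threshold. Reads in genes numbered 5991691 to 8870973 per Gata6-over cell and 4408953 to 9767245 per Gata6-under cell. The summed level of 7 primitive endoderm markers was 370 to 6190 CPM in Gata6-over cells and 0.117 to 5.38 CPM in Gata6-under cells. Gata6 itself is among the 7, so part of this difference was fixed by the division. Sox17, Sox7 and Foxa2 were not detected in any Gata6-under cell. Summed markers of naive pluripotency, 9 genes, stood at 181 to 1590 CPM in Gata6-over cells and 418 to 5660 CPM in Gata6-under cells. These lists moved with the states, and their part in the results below was not tested. Summed markers of fibroblast feeders reached at most 7.15 CPM in Gata6-over cells and 35.9 CPM in Gata6-under cells. The Gata6-over cells were further divided by the summed level of the pluripotency factors Pou5f1, Sox2 and Nanog, called the trio here. In 5 of them, the trio-low cells, the trio amounted to 1.25 to 6.48 CPM, and in the other 8, the trio-retaining cells, to 50.6 to 208 CPM. The name refers to the sum: Sox2 was detected in all 8, but Pou5f1 and Nanog each in 7. Cell 32 had 0.407 CPM of Pou5f1 and cell 41 had 1.17 CPM of Nanog. Among the 5 trio-low cells, Pou5f1 and Nanog were each detected in 1. This division was chosen after the values had been seen. The labels name no separate culture, so each state is 1 sample, and differences between states are given without a test. The SDs are the spread between cells.

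The sequence by which pluripotency factors are known to act on Fgf4 lies in the last exon of the gene itself, where OCT4 (the product of Pou5f1) and SOX2 bind side by side. It is shown as background. Of the cells described below without detected Fgf4, 5 were trio-low, whereas cells 27 and 14 had 73.2 and 141.4 CPM of the trio. Any part of this site in those levels was not tested. The letters searched, on either strand, were the SOX letters CTTTGTT and the OCT letters ATGCNAAT with 3 bases of any kind between them. The match in Fgf4 (chromosome 7, transcript ENSMUST00000060336.4 of the GENCODE set on GRCm38) spans transcript positions 2181 to 2198 of 3030 and lies after the stop codon, as the coding part ends at position 728. Capitals mark the joined SOX and OCT letters.
Fgf4 SOX-OCT site: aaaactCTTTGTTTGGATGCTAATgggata
Of 55341 genes searched, 2 had such a match in a transcript (0.00361%). The letters and their spacing follow the known Fgf4 site, so the match in Fgf4 was fixed in advance. The share does not say how common SOX-OCT sites of another spacing are. A match in letters is a description, and binding was not measured.

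The promoters of Fgf4 and Fgfr2, the ligand and receptor genes that differed in opposite directions between the states, are shown next. Each runs from 250 bases before the start of the gene to 50 after it, 5′ to 3′ on the strand of the gene (RefSeq, GRCm38.p6), and capitals mark CG dinucleotides, the bases at which mammalian DNA is methylated.
Fgf4, chr7:144861136-144861435, plus strand: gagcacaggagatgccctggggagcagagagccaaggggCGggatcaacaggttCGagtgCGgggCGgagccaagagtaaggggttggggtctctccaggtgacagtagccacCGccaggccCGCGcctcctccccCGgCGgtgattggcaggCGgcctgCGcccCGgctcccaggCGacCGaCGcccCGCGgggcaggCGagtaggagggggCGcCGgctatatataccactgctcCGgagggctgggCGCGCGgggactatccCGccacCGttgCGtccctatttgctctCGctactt
Fgfr2, chr7:130266759-130267058, minus strand: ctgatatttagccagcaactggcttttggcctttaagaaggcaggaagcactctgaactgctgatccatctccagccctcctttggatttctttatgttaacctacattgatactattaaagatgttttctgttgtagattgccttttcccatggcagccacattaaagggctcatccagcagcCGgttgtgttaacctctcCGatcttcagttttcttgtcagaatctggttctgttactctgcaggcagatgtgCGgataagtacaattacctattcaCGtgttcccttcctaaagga
The Fgf4 window held 28 CG dinucleotides and 69.7% G and C. The Fgfr2 window held 4 and 43.7%. Over 32851 promoters of the same length the medians were 7 CG dinucleotides and 52.7%. The table of promoters held 6 of the 9 members. Several motifs were searched on both strands in the 7 windows of these 6 genes, since Etv5 has 2. The joined SOX-OCT letters were in 0 of the 6 and in 0.00304% of all promoters, and the SOX letters CTTTGTT, which form part of them, in 0 of the 6 and 5.85% of all. The octamer ATGCAAAT was in 0 of the 6 and 1.74% of all, and the GATA letters AGATAA in 0 of the 6 and 11.2% of all. The letters TGAATGAA of the ERK-sensitive repressor CIC were in 0 of the 6 and 1.3% of all. A further form, TGAATGGA, was in 0 of the 6 and 1.21% of all. Other forms of the CIC letters were not searched, so these counts do not cover them. The ETS letters CCGGAAGT were in 0 of the 6 and 3.89% of all. These counts say only that the letters are not in these windows.

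Between the states, 6 of the 9 genes were at least 2-fold lower in mean CPM in Gata6-over cells, and 1, Fgfr2, was at least 2-fold higher. Of all 11746 genes, 27.7% were at least 2-fold lower and 18.2% at least 2-fold higher. The median log2 ratio was -1.39 over the 9 genes and -0.225 over all genes. The genes lower in Gata6-over cells were the ligand Fgf4, the receptor Fgfr1, the inhibitors Spry4 and Dusp6, and both Etv genes, while Spry2 and Spred1 lay within the 2-fold limit. Dusp6, at 49.9% of its Gata6-under mean, stood just past that limit, and without cell 14, a Gata6-under cell, its log2 ratio was -0.80.

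**Figure D1:**
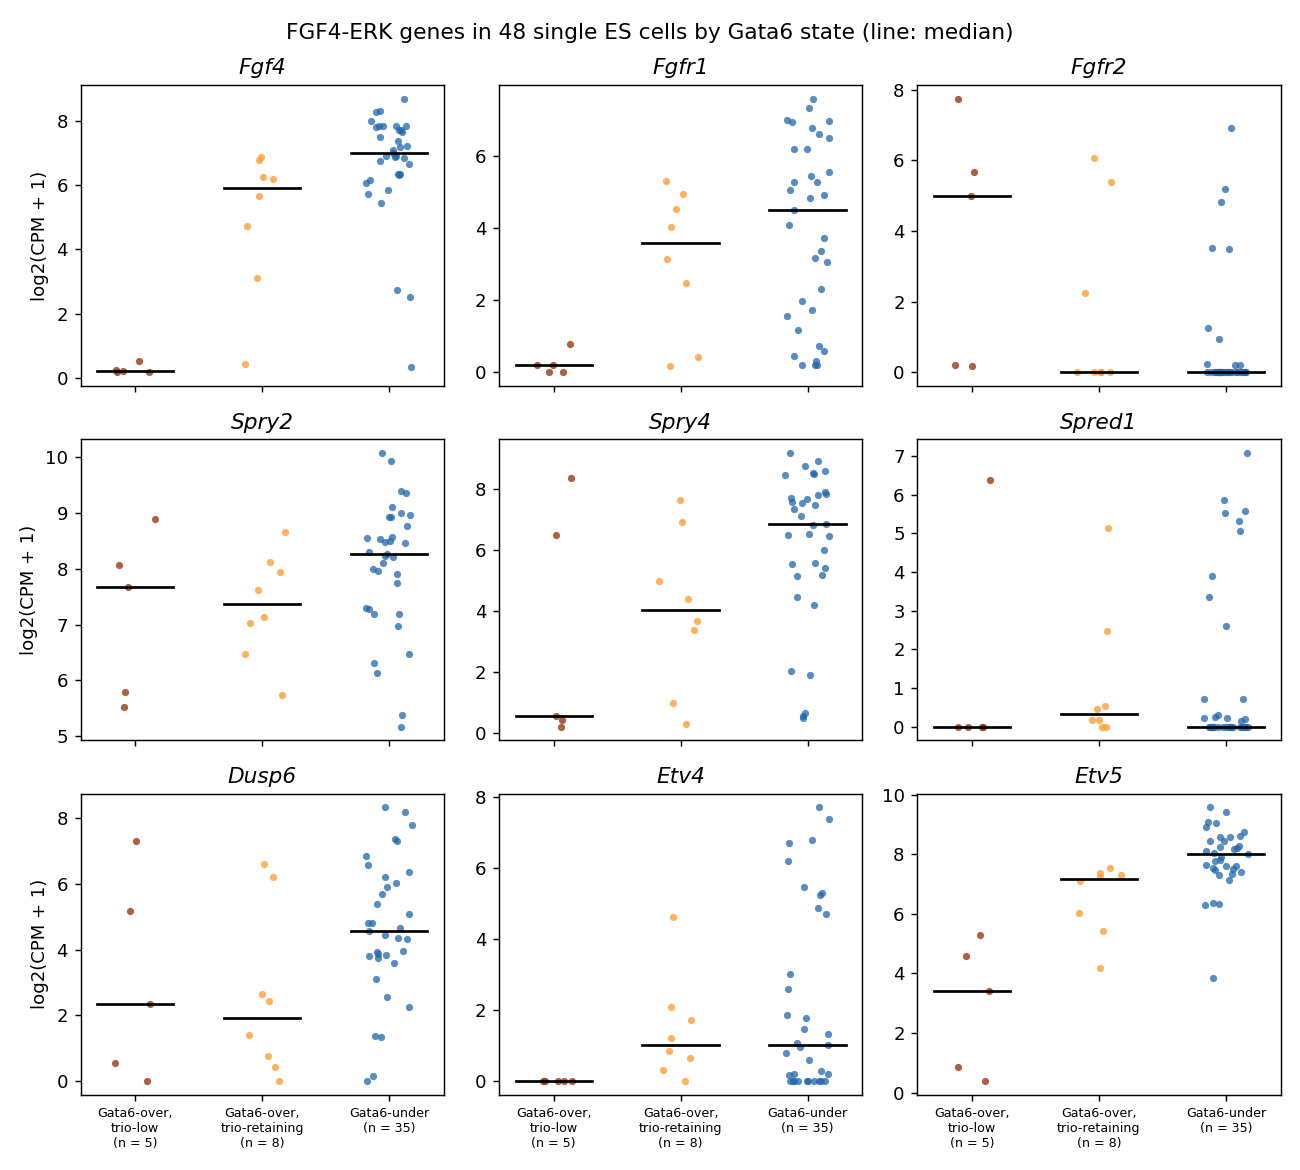
Level of each of the 9 genes, as log2(CPM + 1), in every cell, with 5 Gata6-over trio-low cells, 8 Gata6-over trio-retaining cells and 35 Gata6-under cells from left to right; each point is a cell and the line is the median. Fgf4 is below 1 CPM in all 5 trio-low cells, and Spry2 is present in every cell.

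The ligand gene Fgf4 was one of 2 members, with Etv5, for which every Gata6-over cell lay below the Gata6-under median. Fgf4 had from 0.139 CPM through a median of 7.63 to 116.5 CPM in Gata6-over cells, against 0.267 CPM through a median of 127.6 to 409.8 CPM in Gata6-under cells. The ranges overlapped, with 4 of the 13 Gata6-over cells below the lowest Gata6-under cell. The mean was 35.1 ± 44.2 CPM in Gata6-over cells (SD, n = 13) and 147 ± 93.9 CPM in Gata6-under cells (SD, n = 35), a log2 ratio of -2.06. With every cell thinned to the same 4408953 reads and detection set at 5 reads, Fgf4 was detected in 7 of 13 Gata6-over cells (53.8%, exact Clopper-Pearson interval 25.1% to 80.8%) and in 34 of 35 Gata6-under cells (97.1%, 85.1% to 99.9%).

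Within the Gata6-over cells, Fgf4 separated by the trio with the exception of cell 27. Cells 25, 3, 38, 22 and 33, the trio-low cells, had 0.139, 0.182, 0.153, 0.166 and 0.463 CPM of Fgf4 in that order, which together came to 7 reads, and it was detected in 0 of 5 (exact interval 0% to 52.2%). The 8 trio-retaining cells had 0.346 to 116.5 CPM with a median of 60.6 CPM, and Fgf4 was detected in 7 of them. Cell 27, which holds the lowest Gata6 level of the Gata6-over cells, was the trio-retaining cell at 0.346 CPM, with 45.2 CPM of Sox2. Relative to Gata6-under cells, the log2 ratio of mean Fgf4 was -9.38 in trio-low cells and -1.37 in trio-retaining cells. Over all genes, 38.8% were at least 2-fold lower in trio-low cells than in Gata6-under cells and 29.5% in trio-retaining cells. The planned division of Gata6-over cells, by Pou5f1 under or over 20 CPM, separated Fgf4 less. It was detected in 2 of 8 Pou5f1-under cells, with 109.6 CPM in cell 2, and in 5 of 5 Pou5f1-over cells. The log2 ratios to Gata6-under cells were -3.31 and -1.12.

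Low Fgf4 also occurred in 3 Gata6-under cells. Cells 14, 7 and 28 had 0.267, 4.71 and 5.67 CPM, while the other 32 Gata6-under cells were above 10 CPM. These 3 cells did not have low levels of the ERK phosphatase gene Dusp6, which stood at 319.4 CPM in cell 14, 219.4 CPM in cell 7 and 113.3 CPM in cell 28, against a Gata6-under median of 22.5 CPM. Cell 14 had the highest Dusp6, Fgfr1 and Etv5 of the Gata6-under cells, with 191.5 CPM of Fgfr1 and 763 CPM of Etv5. A low ligand transcript thus stood beside high Fgfr1, Dusp6 and Etv5 in cell 14. Spry2 was high there too, at 972.5 CPM against a Gata6-under median of 306 CPM. Not all members were: Etv4 had 0 reads, and Spry4 had 86.0 CPM against a Gata6-under median of 114 CPM. Cell 7 had 0.456 CPM of Spry4 and 531.8 CPM of Etv5. Cell 28 had 479.9 CPM of Spry4 and 79.7 CPM of Etv5, against a Gata6-under median of 259 CPM for Etv5. These cells were singled out after their values were seen.

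**Figure D2:**
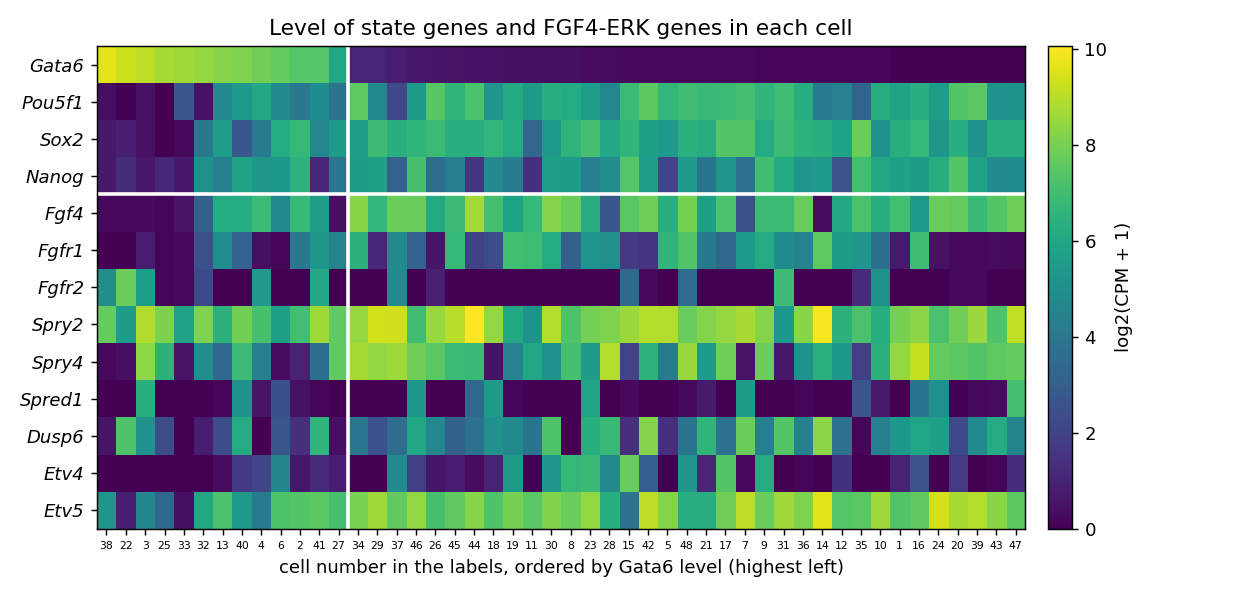
Level of Gata6, the trio and the 9 genes, as log2(CPM + 1) on the colour scale, in each of 48 cells, ordered by Gata6 from left to right; the vertical line separates 13 Gata6-over cells on the left from 35 Gata6-under cells. In the 5 trio-low cells Fgf4 and Fgfr1 are each below 1 CPM, and the highest level of a trio gene is 5.71 CPM of Pou5f1 in cell 33.

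The receptor genes Fgfr1 and Fgfr2 differed in opposite directions. FGFR1 is the main FGF receptor of ES cells and early epiblast, and FGFR2 is known from primitive endoderm and trophectoderm. Fgfr1 had 0 to 38.8 CPM in Gata6-over cells with a median of 0.729, against 0.149 to 191.5 CPM in Gata6-under cells with a median of 21.6. Its mean was 9.22 ± 13.2 CPM in Gata6-over cells (SD, n = 13) and 42.9 ± 52.4 CPM in Gata6-under cells (SD, n = 35), a log2 ratio of -2.22. As with Fgf4, the gap was in part between trio-low and trio-retaining cells: none of the 5 trio-low cells had detectable Fgfr1, with 6 reads among them, and 6 of 8 trio-retaining cells had. Fgfr1 was detected in 29 of 35 Gata6-under cells. Its exons share 125 bases with Gm16159, an antisense gene, and the kit does not mark strand, so reads in that stretch cannot be told apart.

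Fgfr2 was near 0 in most cells of either state and high in a few. It had 0 to 214.4 CPM in Gata6-over cells and 0 to 120.1 CPM in Gata6-under cells, with medians of 0.154 and 0 CPM. It was detected in 6 of 13 Gata6-over cells (46.2%, 19.2% to 74.9%) and in 6 of 35 Gata6-under cells (17.1%, 6.56% to 33.6%), and these intervals overlap. The mean was 31.3 ± 59.7 CPM in Gata6-over cells (SD, n = 13) and 5.89 ± 21.3 CPM in Gata6-under cells (SD, n = 35), a log2 ratio of 2.41. That ratio rests on single cells: it was 1.45 without cell 22, a trio-low cell, and 3.63 without cell 31, the highest Gata6-under cell. In the same order of cells, the trio-low cells had 0.139, 50.3, 30.8, 214.4 and 0.154 CPM, so 3 were high and 2 were near 0. Among trio-retaining cells Fgfr2 was detected in 3 of 8, with a highest value of 66.4 CPM, and its log2 ratio to Gata6-under cells was 3.33 in trio-low cells and 1.24 in trio-retaining cells. Over all genes, 23.5% were at least 2-fold higher in trio-low cells than in Gata6-under cells and 14.1% in trio-retaining cells.

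**Figure D3:**
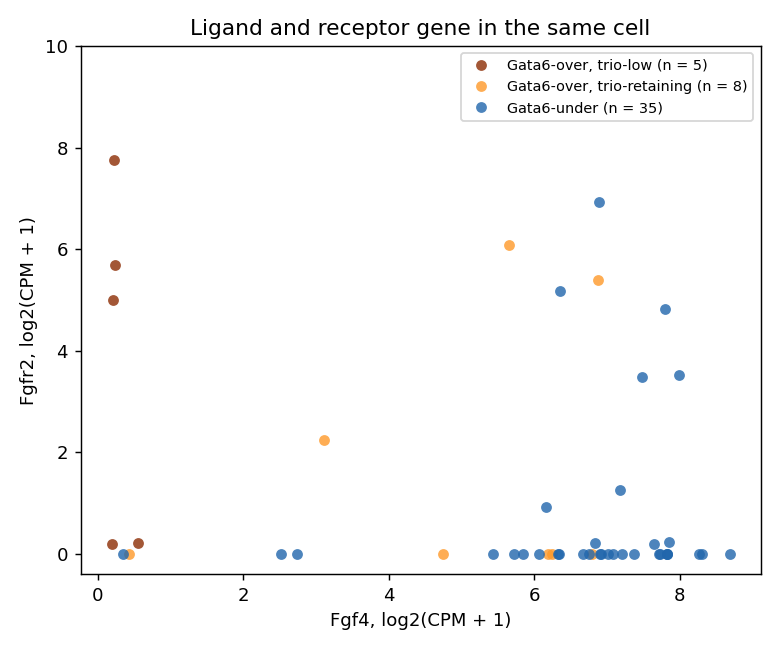
Fgf4 on the horizontal axis and Fgfr2 on the vertical axis, both as log2(CPM + 1), with a point per cell coloured by state. The 3 cells with Fgfr2 and no detected Fgf4 are all Gata6-over trio-low cells, and no Gata6-under cell is in that corner. Fgf4 was detected in 34 of 35 Gata6-under cells, which nearly fixes that absence.

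Ligand and receptor were next compared within the same cell, as mean CPM per kilobase of exon so that genes of unequal length share a scale. Among cells with at least 1 of the 3 genes detected, Fgf4 exceeded the sum of Fgfr1 and Fgfr2 per kilobase in 6 of 11 Gata6-over cells and in 30 of 35 Gata6-under cells. Fgf4 averaged 11.6 CPM per kilobase and the receptor sum 8.36 in Gata6-over cells, against 48.4 and 9.76 in Gata6-under cells. The receptor mean of Gata6-over cells rests on cell 22, without which it was 5.33 CPM per kilobase. The median of the receptor sum was 4.36 CPM per kilobase in Gata6-over cells and 6.47 in Gata6-under cells. Fgfr2 had more reads than Fgfr1 in 5 of 13 Gata6-over cells, 3 of them trio-low, and in 4 of 35 Gata6-under cells. The other 2 trio-low cells, 25 and 33, had equal reads of the pair and neither receptor detected.

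By detection, 3 Gata6-over cells had Fgfr2 without Fgf4 and 0 of 35 Gata6-under cells did. The latter allows a share of up to 8.57%, approximated as 3 divided by 35, which is not an exact Clopper-Pearson limit. Cells with Fgfr1 as their sole detected receptor of this pair numbered 4 of 13 in the Gata6-over state and 23 of 35 in the Gata6-under state. Cells with Fgfr2 as the sole one numbered 4 of 13 in the Gata6-over state and 0 of 35 in the Gata6-under state. Neither receptor was detected in 3 of 13 Gata6-over cells and in 6 of 35 Gata6-under cells, and those 6 all had detected Fgf4.

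Spry2, which encodes a Sprouty inhibitor of receptor signalling, was the one member detected in all 48 cells. It had 44.9 to 470.5 CPM in Gata6-over cells with a median of 195, against 35.1 to 1073 CPM in Gata6-under cells with a median of 306, and 9 of the 35 Gata6-under cells lay above the highest Gata6-over cell and 2 below the lowest. Its mean was 197 ± 134 CPM in Gata6-over cells (SD, n = 13) and 342 ± 238 CPM in Gata6-under cells (SD, n = 35), a log2 ratio of -0.80. Trio-low cells kept Spry2 at 208 ± 175 CPM (SD, n = 5), while their ligand gene was under 1 CPM. Per kilobase, Spry2 was above its paralog Spry4 in all 48 cells.

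Spry4, a second Sprouty gene, had 0.153 to 323.9 CPM in Gata6-over cells with a median of 11.7, against 0.412 to 574.5 CPM in Gata6-under cells with a median of 114. Its mean was 61.6 ± 99.0 CPM in Gata6-over cells (SD, n = 13) and 162 ± 153 CPM in Gata6-under cells (SD, n = 35), a log2 ratio of -1.39, which became -2.02 without cell 3. The 5 trio-low cells were split: cell 3 had 323.9 CPM and cell 25 had 87.9 CPM of Spry4, and the other 3 had 0.153, 0.331 and 0.463 CPM. Cell 3 was also the trio-low cell with the highest Spry2, 470.5 CPM, and the one with Spred1, 82.1 CPM, although its Fgf4 and Fgfr1 were at 0.182 and 0.730 CPM.

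Spred1, which encodes a Sprouty-related inhibitor of RAF activation, was detected in 3 of 13 Gata6-over cells and 10 of 35 Gata6-under cells. Its mean was 9.39 ± 23.8 CPM in Gata6-over cells (SD, n = 13) and 11.0 ± 26.6 CPM in Gata6-under cells (SD, n = 35). The log2 ratio of -0.23 became -1.72 without cell 3 and 0.35 without cell 47, a Gata6-under cell, so its sign depends on single cells.

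Dusp6, the gene of the cytoplasmic ERK phosphatase, had 0 to 155.7 CPM in Gata6-over cells with a median of 4.03, against 0 to 319.4 CPM in Gata6-under cells with a median of 22.5. Its mean was 28.9 ± 49.3 CPM in Gata6-over cells (SD, n = 13) and 58.0 ± 80.5 CPM in Gata6-under cells (SD, n = 35). Detection stood at 8 of 13 Gata6-over cells and 33 of 35 Gata6-under cells. Cell 22, the trio-low cell with the highest Fgfr2, was also the Gata6-over cell with the highest Dusp6, and without it the log2 ratio of Dusp6 was -1.66. In that cell Spry4 was at 0.331 CPM, Etv5 at 0.828 CPM and Spry2 at 44.9 CPM, the lowest Spry2 of the Gata6-over cells, so the members did not move as a block.

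The transcription factor genes Etv4 and Etv5 were both lower in Gata6-over cells. Etv5 had 0.309 to 186.5 CPM in Gata6-over cells with a median of 41.5, against 13.4 to 763 CPM in Gata6-under cells with a median of 259. Every Gata6-over cell was below the Gata6-under median, and 3 were below the lowest Gata6-under cell. Its mean was 76.2 ± 70.9 CPM in Gata6-over cells (SD, n = 13) and 285 ± 168 CPM in Gata6-under cells (SD, n = 35), a log2 ratio of -1.90. In the same order, the trio-low cells had 9.59, 23.2, 38.6, 0.828 and 0.309 CPM, and the 8 trio-retaining cells 17.3 to 186.5 CPM. The log2 ratio to Gata6-under cells was -4.29 in trio-low cells and -1.31 in trio-retaining cells.

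Etv4 was high in few cells. It had 0 to 23.4 CPM in Gata6-over cells with a median of 0.250, against 0 to 208.3 CPM in Gata6-under cells with a median of 1.03. The mean was 2.45 ± 6.38 CPM in Gata6-over cells (SD, n = 13) and 24.4 ± 49.6 CPM in Gata6-under cells (SD, n = 35), a log2 ratio of -3.31. That ratio was -5.10 without cell 6, the highest Gata6-over cell, and -2.95 without cell 15, the highest Gata6-under cell. With the difference of mean log2(CPM + 10) it was -0.71 and with the ratio of medians -0.70, both inside the 2-fold limit. Etv4 was detected in 4 of 13 Gata6-over cells and 18 of 35 Gata6-under cells. The 5 trio-low cells held 0 Etv4 reads, which makes their level at least 258-fold lower than that of Gata6-under cells at a floor of 3 reads over the 5 cells. Per kilobase, Etv4 exceeded Etv5 in 2 cells, both Gata6-under.

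Ordered by mean CPM per kilobase over all 48 cells, the levels were 145 for Spry2, 57.4 for Etv5, 38.4 for Fgf4, 28.3 for Spry4, 17.9 for Dusp6, 7.70 for Etv4, 6.72 for Fgfr1, 2.66 for Fgfr2 and 1.56 for Spred1. The gap between neighbours in this order was smaller than the SD of either gene, except between Spry2 and Etv5, where Spry2 was the higher in 39 of 48 cells. Fgf4 exceeded Spry4 in 34 of 48 cells. The order of the first 7 genes was the same in Gata6-under cells, whereas in Gata6-over cells Etv4 came last, at 1.02 CPM per kilobase, and Fgfr2 came before Fgfr1, at 6.52 and 1.83. Spry4 and Fgf4 had 13.0 and 11.6 CPM per kilobase in Gata6-over cells, and 8.37 and 12.6 without cell 3, so their order there rests on that cell.

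Spread between cells was then set against genes of like mean, as the variance of log2(CPM + 1) divided by a trend fitted over all genes. Over all 48 cells Etv5 had 2.52 times, Spry4 2.21 times and Fgf4 2.05 times the trend, so 3 of 9 members exceeded 2 times, against 2.91% of all genes. Within the 35 Gata6-under cells Spry4 alone did, at 2.56 times, against 2.41% of all genes, with Spry2 at 1.85, Fgf4 at 1.64 and Etv5 at 1.38 times. Spry4 was below 1 CPM in 3 Gata6-under cells and above 100 CPM in 19. The variances over all cells hold the difference between the states, which for Etv5 and Fgf4 is also the difference given above.

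**Figure D4:**
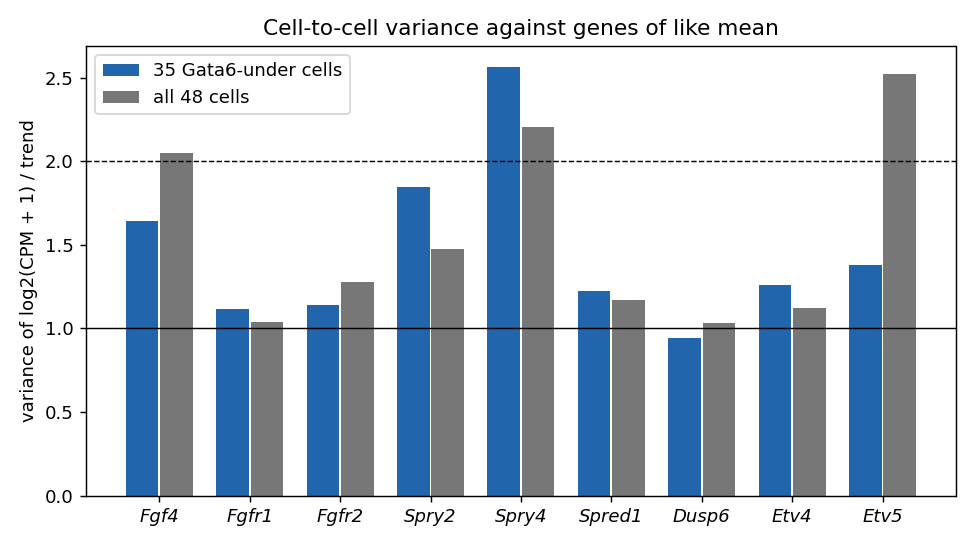
Variance of log2(CPM + 1) between cells divided by the trend over genes of like mean, for each of the 9 genes, in the 35 Gata6-under cells and in all 48 cells; the solid line is the trend and the dashed line is 2 times the trend. Spry4 is the gene above the dashed line in the Gata6-under cells, and Fgf4 and Etv5 pass it when all cells are used.

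Whether the members went up and down together was described within the 35 Gata6-under cells, since the states would otherwise set the correlation. Over the 36 pairs of members, Spearman's rho ran from -0.38 for Etv4 and Etv5 to 0.31 for Dusp6 and Etv5, with a median of -0.03, and 14 pairs were positive. Over all pairs of 11454 genes, the 5th and 95th percentiles were -0.29 and 0.29. The pairs of the ligand with Fgfr1 and with Dusp6 had -0.33 and -0.28, and with Etv5 0.05. Fgf4 had 0.20 with Pou5f1, -0.11 with Sox2 and 0.29 with Nanog. The same cells and the same read totals lie behind each of these values, and Fgf4 itself had -0.35 with a cell's read total.

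The genes most like each member across these 35 cells, among those detected in at least 10 of them, were Rpl10l (0.66), Aspscr1 (0.64) and Pif1 (0.64) for Fgf4. For Fgfr1 they were Ephb4 (0.67), Adal (0.65) and Atg2b (0.60). For Fgfr2 they were Hs6st1 (0.61), Rdx (0.56) and Myh9 (0.56); Hs6st1 is a sulfotransferase that modifies heparan sulfate. For Spry2 they were Cstb (0.67), Bcas2 (0.65) and 2700023E23Rik (0.60), and for Spry4 Bdh2 (0.59), Aifm2 (0.57) and Mtf1 (0.55). For Etv5 they were Impact (0.58), Matr3 (0.57) and Mms19 (0.57), and for Etv4 Phf21b (0.65), Tmem219 (0.60) and Pcgf3 (0.59). For Dusp6 they were Lcor (0.58), Eri2 (0.56) and Hsd3b7 (0.54), and for Spred1 Dmd (0.59), Ramp3 (0.59) and 2810453I06Rik (0.58). No member was among the 3 genes most like another member. These are the highest values over all genes with enough reads, each from 35 cells, and are a description.

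The other genes of the pathway were counted on lists of ligands, receptors, co-receptors, adaptors, cascade kinases, feedback genes and targets. Of 95 rows found, 70 averaged 10 or more reads a cell. Of these, 22 were at least 2-fold higher in Gata6-over cells, 23 at least 2-fold lower and 25 in between, beside 18.2% and 27.7% of all genes, and their median log2 ratio was -0.21. Of all genes, 54.1% differed by less than 2-fold and 45.9% by more in either direction. Beside this, 8 of 12 cascade genes and 7 of 10 adaptors differed by less than 2-fold. Those past it were all 7 other ligands tested, both other receptors tested, 9 of 11 co-receptor and heparan sulfate genes, 8 of 13 feedback genes and 12 of 15 targets and nuclear effectors. Whether the lists differ from each other was not tested, and several of the ligands were detected in few cells.

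Among other receptors and co-receptors, Fgfr3 had a mean of 22.0 ± 48.2 CPM in Gata6-over cells (SD, n = 13) and 0.253 ± 0.313 CPM in Gata6-under cells (SD, n = 35). It was detected in 8 of 13 Gata6-over cells and 2 of 35 Gata6-under cells, but cell 25 held 59.0% of its summed level. The log2 ratio of Fgfr3 was 6.45, and 5.21 without that cell. Klb, which encodes the co-receptor beta-Klotho for endocrine FGFs, had 1155 reads in Gata6-over cells, where it was detected in 7 of 13, and 3 reads in all Gata6-under cells. Gpc3, a heparan sulfate proteoglycan of the cell surface, was at 319 ± 325 CPM in Gata6-over cells (SD, n = 13) and 54.1 ± 51.4 CPM in Gata6-under cells (SD, n = 35). Sdc1, another such proteoglycan, and Ndst1, a heparan sulfate sulfotransferase, were lower in Gata6-over cells by log2 ratios of -3.46 and -3.90. A single Gata6-under cell, cell 44, held 49.4% of the summed Sdc1 and 43.3% of the summed Ndst1, and without it the ratios were -2.46 and -3.10. Leaving out cell 6 gave -4.44 for Sdc1, and leaving out cell 13 gave -4.71 for Ndst1.

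Among other ligands, Fgf3 was detected in 6 of 13 Gata6-over cells and 3 of 35 Gata6-under cells, with a log2 ratio of 4.62 that became 3.52 without cell 38 and 5.28 without cell 20. Fgf5, a marker of primed epiblast, had 1 read in Gata6-over cells and 602 reads in Gata6-under cells, from 3 cells with detection. A single Gata6-under cell held 86.2% of the summed Fgf5. Fgf13, whose product acts inside cells, held 0 reads in Gata6-over cells, at least 91-fold lower than in Gata6-under cells, where it too was detected in 3 cells. Cell 1 held 78.8% of Fgf13, and without it the bound was at least 20-fold lower. Fgf1 had a log2 ratio of -3.01, with detection in 1 of 13 Gata6-over cells and 3 of 35 Gata6-under cells. That ratio was -1.61 without cell 42, and without cell 6 Fgf1 held 0 reads in Gata6-over cells.

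Of 13 other feedback genes, 4 were at least 2-fold higher and 4 at least 2-fold lower, beside 18.2% and 27.7% of all genes. Their median log2 ratio was -0.03. Dusp9, another ERK phosphatase gene, had 85.9 ± 62.1 CPM in Gata6-over cells (SD, n = 13), where it was detected in all 13, against 9.43 ± 20.7 CPM in Gata6-under cells (SD, n = 35), where it was detected in 20. Its log2 ratio of 3.19 thus ran opposite to that of Dusp6. Dusp14 had a log2 ratio of 3.51, with 75.9% of its summed level in cell 22, and without that cell the ratio was -0.40. Spred3 had 934 reads in Gata6-over cells, detected in 2, and 2 reads in Gata6-under cells. Spry1, another Sprouty gene, had 87 reads in Gata6-over cells, detected in 1 of 13, and 3107 reads in Gata6-under cells, detected in 18 of 35. Il17rd, which encodes an FGF receptor antagonist of the Sef family, had a log2 ratio of -2.75, or -6.34 without cell 6.

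Among the targets and nuclear effectors, Etv1 followed its relatives Etv4 and Etv5: it held 0 reads in Gata6-over cells, at least 244-fold lower than in Gata6-under cells, where it was detected in 16 of 35. Ccnd1, the gene of cyclin D1, had 26.8 ± 31.8 CPM in Gata6-over cells (SD, n = 13) and 126 ± 88.2 CPM in Gata6-under cells (SD, n = 35). Myc had a log2 ratio of -2.06, or -3.96 without cell 25. Going the other way, the ETS factor gene Ets1 had 4744 reads in Gata6-over cells, detected in 9 of 13, and 13 reads in Gata6-under cells, detected in none. The early response genes Ier3 and Phlda1 had log2 ratios of 2.55 and 2.68, which became 3.31 without cell 7 for Ier3 and 3.34 without cell 14 for Phlda1. Of the 15 targets and nuclear effectors tested, which include effectors such as Elk1 and the repressor Cic, 4 were at least 2-fold higher and 8 at least 2-fold lower, beside 18.2% and 27.7% of all genes.

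**Figure D5:**
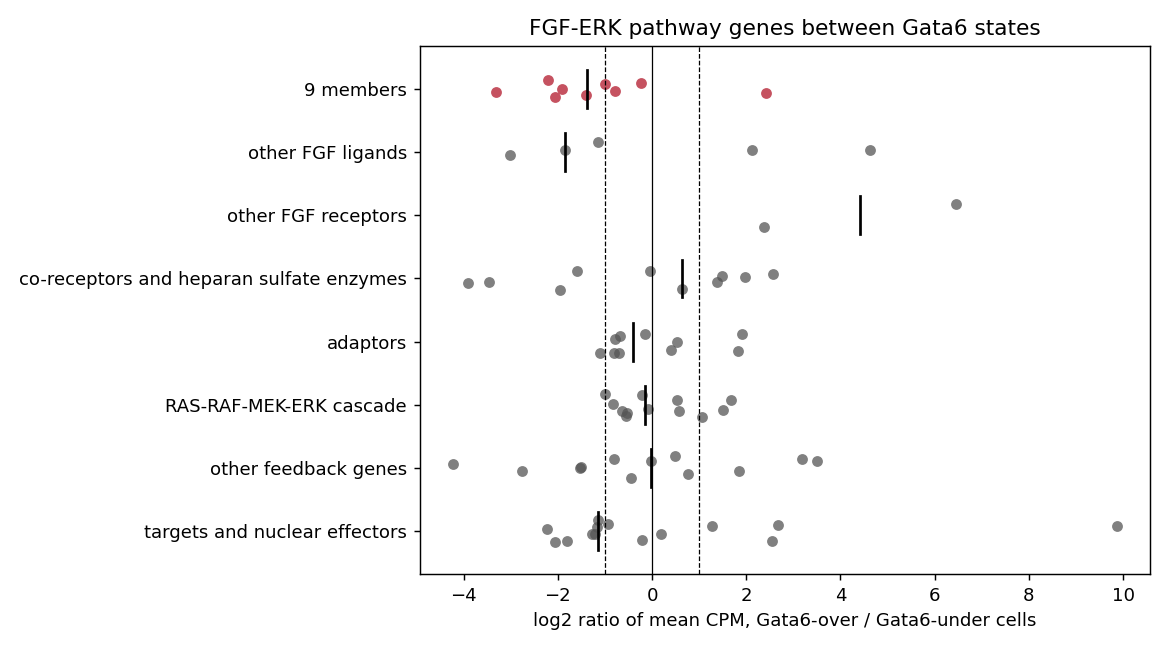
Log2 ratio of mean CPM, Gata6-over over Gata6-under cells, for the 9 members and the other genes of 7 pathway lists; each point is a gene, the short line is the list's median and dashed lines mark 2-fold. Of 70 listed genes tested, 65 are drawn, and 5 with at most 3 reads in a state are not drawn but count in the medians.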

How the data were processed

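Single J1 ES cells were captured on a microfluidic chip, amplified with the SMARTer kit and made into Nextera XT libraries without strand or molecular identifiers, per the labels' protocols. The deposited table holds whole-number read counts per gene for 48 cells on 2 lanes each (96 samples), with no normalization by the authors. The genome build mm9 and the tools Subread 1.4.5-p1, featureCounts and STAR 2.3.1z12 are listed, without roles, per the submitters' processing notes. Rows with date-like names numbered 25, with 0.66% of reads, and were kept.

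Lanes of a cell were summed. CPM used TMMwsp factors of edgeR 4.0.16. Genes averaging 10 or more reads a cell gave the share past 2-fold. Detection was at least 5 reads after thinning each cell to 4408953 reads. The variance trend was fitted with scran 1.30.0 on log2(CPM + 1), a pseudocount of 1. Ratios were of mean CPM. The procedure was tested on simulated data. Exon lengths and the transcript came from GENCODE on GRCm38, which is not the authors' build, so gene coordinates of the files were not used. Intervals (95%) and floors of 3 reads cover counting error only.

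No test was run: the cells form 1 labelled group and name no separate culture. The members and lists were chosen with earlier results of these data known. All members are named; of other pathway genes, at most 10 past 2-fold in each direction, by size; and the 3 genes most like each member. Alternatives changed the scaling (DESeq2 1.42.0 size factors, library size), the pseudocount, the read filter, the Gata6 threshold, the detection minimum and the cells left out.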

Additional observations from a re-analysis of the deposited data

How the results depend on the processing

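Under 16 alternatives the number of members at least 2-fold lower in Gata6-over cells ran from 4 to 7 (6 in the report), and no member past 2-fold changed sign. The share of all genes at least 2-fold lower ran from 5.33% to 38.9% over 15 alternatives. It was 38.8% with the trio-low cells alone and 5.33% with the difference of mean log2(CPM + 10), each beside 4 members. Etv4 fell inside the limit with the latter and with the ratio of medians. The number of members at least 2-fold higher was 0, against 1, with the difference of mean log2(CPM + 10) and with the ratio of medians, since Fgfr2 is at or near 0 in most cells. Members over 2 times the variance trend numbered 1, against 3, in Gata6-under cells alone and with log2(CPM + 10). The median correlation between members ran from -0.05 to 0.10 over 4 alternatives. Spred1, within the 2-fold limit, changed sign with the trio-low cells alone (log2 ratio 0.58) and with the ratio of medians (0.17). Leaving out 1 cell moved Fgfr2, Spry4, Spred1, Dusp6 and Etv4 by over 1.5 times, as given above. With library size scaling or DESeq2 size factors the median of all genes lay at -0.24 and -0.19, against -0.23. No paired analysis was possible because all cells belong to 1 group. For Etv4 no ratio could be had with the trio-low cells alone, which hold 0 reads. With the planned division by Pou5f1 at 20 CPM, log2 ratios of Pou5f1-under and Pou5f1-over cells to Gata6-under cells were -3.00 and -1.48 for Fgfr1. They were 2.67 and 1.87 for Fgfr2, and -2.375 and -1.37 for Etv5.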
